A study of Homo sapiens with 9 samples.

Results

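The genes described here encode the membrane of the lysosome, the pump that acidifies it and the receptors and enzymes that sort proteins to it. They are a list of 40 human genes given by name, of which 17 are subunits or accessory proteins of the vacuolar H+-ATPase (V-ATPase) and 23 are membrane or sorting proteins. Of the 40, 37 had a row among the 11746 genes with an Entrez number in the deposited counts, and 36 of these were among the 11064 genes with enough reads to be tested. ATP6V0C, MCOLN1 and CLN3 were not analysed here, and SPNS1, which stayed between 0.681 and 2.83 CPM, was not tested.

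HepG2 is a human liver cancer line. The cells had been transduced with lentiCRISPRv2, which carries Cas9 and a guide RNA, and selected with puromycin; the guide was directed at AAVS1 (sgCtrl), a site used as a neutral target, or at KEAP1 with one of 2 sequences (sgKeap1-1, sgKeap1-2). Each group had 3 libraries, from RNA taken 48 h after seeding in EMEM, and the comparison asks what loss of KEAP1 does to the RNA of these genes. No source used here says whether the 3 libraries of a group came from separate transductions, so the p-values measure the spread between these libraries, which may be technical, and the same 3 sgCtrl libraries serve both guides.

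A lysosome is acidified by the V-ATPase, whose cytosolic V1 sector hydrolyses ATP and whose membrane V0 sector carries the protons. Its limiting membrane is lined by heavily glycosylated proteins such as LAMP1 and LAMP2, and newly made hydrolases reach it from the Golgi after being tagged with mannose 6-phosphate and bound by the receptors M6PR and IGF2R. Many lysosomal genes carry the CLEAR element, built around the E-box CACGTG, which the factors TFEB and TFE3 bind. KEAP1 is the adaptor through which the factor NRF2 is degraded, and NRF2 binds antioxidant response elements with the core TGACNNNGC.

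The libraries held 3011644 to 4725840 reads in numbered genes. Values are normalized CPM, read counts relative to library size, scaled by the TMM method of edgeR. The QuantSeq 3' kit reads 1 end of each transcript, so levels of different genes were set side by side without division by length. KEAP1 RNA was 63.3, 89.2 and 85.3 CPM in sgCtrl, 64.1, 62.5 and 53.4 CPM with sgKeap1-1 and 81.9, 85.6 and 73.9 CPM with sgKeap1-2, and neither guide passed the test against sgCtrl (edgeR adjusted p = 0.211 and 0.952). Reads next to the poly(A) tail do not show whether a Cas9 cut disrupted the coding sequence, so this level does not check the labels. The NRF2 targets NQO1, GCLM and TXNRD1 rose with both guides, by 1.38 to 2.13 on the log2 scale with sgKeap1-1 and by 1.74 to 2.34 with sgKeap1-2, and SRXN1 was not analysed here. All 10 hepatocyte markers were measured, with ALB at 11000 to 16300 CPM in sgCtrl, and their summed level was 36050 to 45120 CPM in sgCtrl, 24240 to 31280 CPM with sgKeap1-1 and 21450 to 24180 CPM with sgKeap1-2. The markers did not move as 1 group. ALB, AFP, APOA1, FGB and TF fell with both guides and HNF4A with sgKeap1-2, and TTR rose with both (0.63 and 0.65, edgeR adjusted p = 0.0298 and 0.0131). APOA2 (0.35 and 0.38), APOB (-0.06 and 0.03) and SERPINA1 (-0.15 and -0.28) did not pass the test. With replicate as a blocking factor APOA2 rose with both guides (edgeR adjusted p = 0.047 and 0.0138) and HNF4A fell with sgKeap1-1 too (0.0121). Of the fibroblast markers 2 of 5 were measured (summed 6.16 to 15.8 CPM over all libraries), of the endothelial markers 0 of 4, and of the leukocyte markers CD14 and LYZ of 5, without PTPRC. The summed leukocyte level, nearly all of it LYZ, was 963.5 to 1807 CPM in sgCtrl, 996.9 to 2541 CPM with sgKeap1-1 and 680.3 to 1539 CPM with sgKeap1-2. The part of these marker levels in the results below was not tested, and fewer cells of a type cannot be told apart from less RNA per cell.

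A few of the members rose on loss of KEAP1, and most had small positive differences that did not pass the test. None fell in the edgeR fit of all libraries without a block. ATP6V0E2 fell with each guide and with both when replicate was a block, and in some of the other alternatives. With sgKeap1-2 6 of the 36 tested members rose: the V-ATPase subunits ATP6V1E1, ATP6V0A1 and ATP6V0E1 and the membrane proteins LAMP1, CD63 and TMEM92. That is 16.7% of the members, where 5.96% of all tested genes rose in the same comparison. The members were chosen with earlier results of these data known, so this share and those below describe the list and test nothing. With sgKeap1-1 2 members rose, CD63 and TMEM92, which is 5.56% against 2.8% of all tested genes. With both guides as 1 group against sgCtrl 6 members rose (ATP6V1E1, ATP6V1H, ATP6V0A1, LAMP1, CD63 and TMEM92), or 16.7% against 5.51%. TMEM92, with 2 reads in all of sgCtrl, had enough reads to be tested only through the knockout libraries in which it was high. Without it 1 of 35 members rose with sgKeap1-1 (2.86%, about the 2.8% of all tested genes), and 5 of 35 (14.3%) rose with sgKeap1-2 and with both. No member fell in any of these comparisons in the edgeR fits of all libraries without a block, where 1.4%, 4.85% and 4.13% of all genes fell. There 1 member below 0, ATP6V0E2, had an unadjusted p under 0.05 in each comparison. limma-voom called 0 members lower, and DESeq2 called ATP6V0E2 lower with both guides (adjusted p = 0.0484). With only the groups compared, edgeR called ATP6V0E2 lower with sgKeap1-1 (adjusted p = 0.0487). Same-numbered libraries of the 3 groups share a prefix in their descriptions, whose meaning is not stated. When edgeR was run with replicate as a blocking factor, ATP6V0E2, which was lower in 6 of 6 same-numbered differences, fell with sgKeap1-1 (adjusted p = 0.00581), with sgKeap1-2 (0.0149) and with both (0.00359). The block brought the number of the 36 tested members that passed to 5, 11 and 9, TMEM92 among them. With TMEM92 set aside, 3, 9 and 7 of the 35 rose with the block and 1 fell in each comparison. Of all 11064 tested genes 977, 1956 and 1609 passed with the block in either direction, against 465, 1196 and 1067 without it. With the block ATP6V1H also rose with each guide alone, LAMP1 with sgKeap1-1 and ATP6V1D, SCARB2 and TMEM192 with sgKeap1-2. The threshold was an adjusted p under 0.05 in edgeR's quasi-likelihood test, adjusted over all tested genes.

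The members as a list, chosen with earlier results of these data known, were shifted to the positive side. The values that follow describe the list and are no test of it. Over the 35 tested members other than TMEM92 the median log2 fold change was 0.24 with sgKeap1-1, 0.32 with sgKeap1-2 and 0.28 with both, where the median of all tested genes was -0.00, -0.01 and -0.00. The log2 fold change was above 0 for 27 of the 35 with sgKeap1-1 and for 26 with sgKeap1-2, against 49.9% and 48.3% of all tested genes. In 15 of them all 3 sgKeap1-1 libraries lay above all 3 sgCtrl libraries, in 13 all 3 sgKeap1-2 libraries did, and in 12 all 6 libraries of the guides did; among all tested genes these shares were 11.5%, 14.3% and 8.04%. The converse, all libraries below sgCtrl, was seen in 2, 3 and 0 members (10.3%, 13.7% and 6.74% of all tested genes). The summed level of the 37 members was 5289 ± 188 CPM in sgCtrl, 5782 ± 239 CPM with sgKeap1-1 and 5954 ± 183 CPM with sgKeap1-2 (mean ± SD, n = 3 libraries each). CD63 alone, with means of 670, 942 and 1041 CPM, made the largest part of the difference in this sum. The subgroups had like medians: 0.17 and 0.24 over the 16 tested V-ATPase genes with sgKeap1-1 and sgKeap1-2, and 0.26 and 0.34 over the 20 tested membrane and sorting genes, TMEM92 included.

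**Figure D1:**
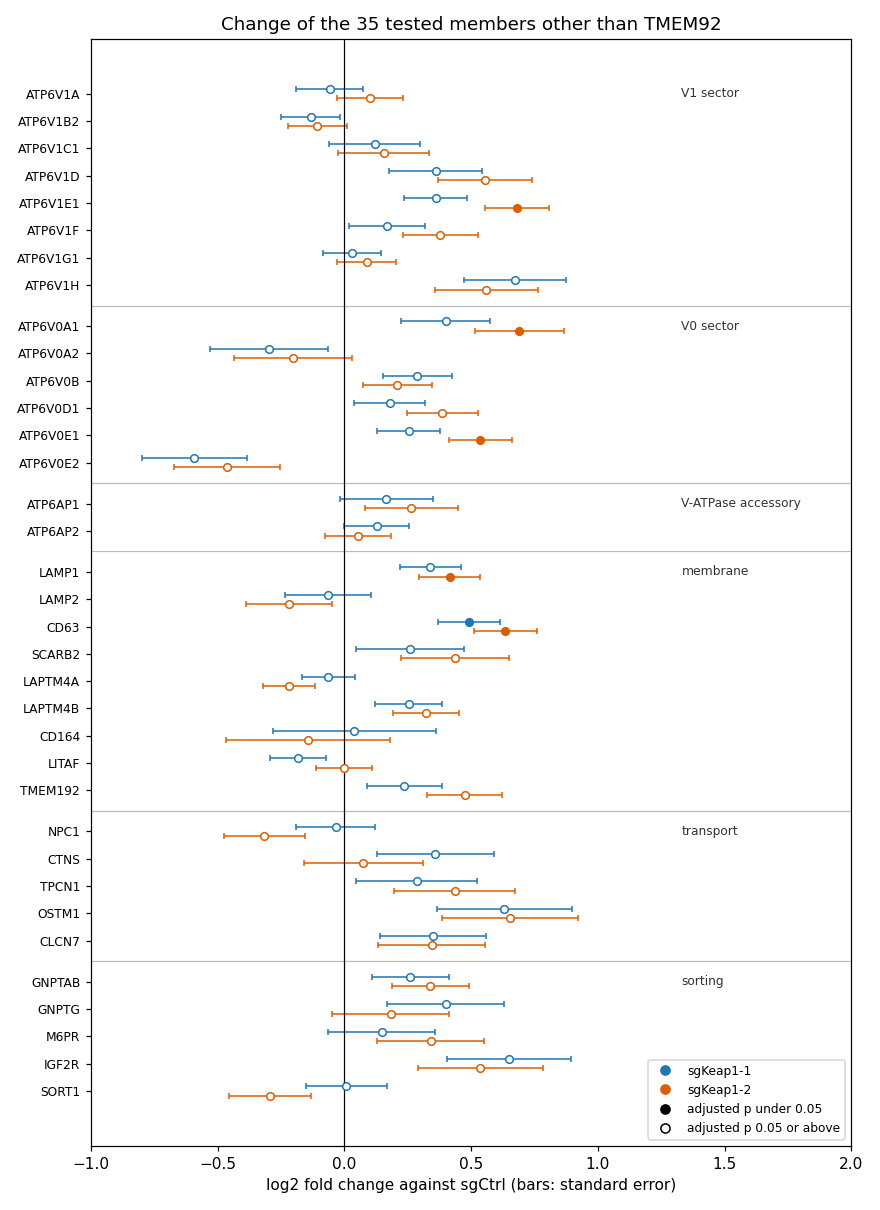
Log2 fold change against sgCtrl (horizontal axis; bars are the standard error) of the 35 tested members other than TMEM92, by subgroup, with sgKeap1-1 in blue and sgKeap1-2 in orange; filled points passed an adjusted p of 0.05. Most points lie to the right of 0, filled points are 1 with sgKeap1-1 (CD63) and 5 with sgKeap1-2, and ATP6V0E2 lies farthest to the left.

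Among all tested genes sgKeap1-2 replicate 3 was the most frequent extreme of the 6 knockout libraries (lowest in 26.1%, highest in 25.6%). Among the 36 tested members it was lowest in 10 and highest in 7, which did not set it apart: sgKeap1-1 replicate 2 was lowest in 8 and highest in 9, and sgKeap1-1 replicate 3 lowest in 11. It held the largest departures of a few members. CD164 was at 0.467 times the median of the other 5 libraries there, IGF2R at 0.484 times, GNPTG at 0.525 times and LAMP2 at 0.614 times, while ATP6V0E2 was at 1.52 times. Without this library 37 members were tested, with SPNS1 added. Of these, 4 rose and 1 fell with sgKeap1-1 (3.87% and 2.25% of all genes). With sgKeap1-2 8 rose and 1 fell (6.13% and 5.03%), and with both guides 8 rose and 1 fell (6.38% and 4.82%). Each count of members that rose includes TMEM92, which could be tested only through the knockout libraries. The member that fell was ATP6V0E2 each time. With sgKeap1-1 IGF2R and ATP6V1H were added. With sgKeap1-2 IGF2R, ATP6V1H and OSTM1 were added and LAMP1 was lost (edgeR adjusted p = 0.0743). In the joint comparison IGF2R, OSTM1 and ATP6V0E1 were added and ATP6V0A1 was lost (adjusted p = 0.0554). Of the fits that left out 1 library this one called the most members, 5, 9 and 9. The fewest, 1, 4 and 2, were called without sgCtrl replicate 1, where 278, 764 and 607 of all genes passed. The 1 with sgKeap1-1 was TMEM92.

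Promoter sequence is given because several members rose together. RefSeq windows of 300 bases (GRCh38.p14, 250 before to 50 after the annotated start, the first listed window of each gene) were matched for 32 of the 40 members; ATP6V1A, ATP6V1B2, ATP6V1C1, ATP6V1H, ATP6V0E1, LAMP2, LAPTM4B and TMEM92 had none. The letters CACGTG, searched on both strands, occurred in 13 of the 32 windows (40.6%), where 10.3% of the windows of tested genes and 7.43% of all 27305 windows held them. The longer TCACGTGA, which contains CACGTG, occurred in 8 member windows (25%, against 2.11% of tested genes): ATP6V1G1, ATP6V0D1, LAMP1, CD164, MCOLN1, CLN3, GNPTG and IGF2R. TGACNNNGC occurred in 8 member windows (25%, against 15.4% of tested genes). The windows of 467 genes that rose in the comparison of both guides held CACGTG in 5.57% and TGACNNNGC in 15.4%.

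The stretches shown are upstream of the start site, 5' to 3' on the gene's strand, for members whose results are described below: LAMP1 (chr13:113297017-113297238, plus strand) and CD63 (chr12:55729154-55729219, minus strand), which rose; IGF2R (chr6:159968919-159969081, plus), whose result turned on 1 library; ATP6V1G1 (chr9:114587680-114587747, plus), which has TCACGTGA and differed little; ATP6V0E2 (chr7:149872866-149872931, plus), the member with the lowest log2 fold change; and ATP6V0A1 (chr17:42458732-42458800, plus), which rose. Capitals mark CACGTG in LAMP1, CD63 and ATP6V0E2, TCACGTGA in IGF2R and ATP6V1G1, and the match to TGACNNNGC in ATP6V0A1.
LAMP1: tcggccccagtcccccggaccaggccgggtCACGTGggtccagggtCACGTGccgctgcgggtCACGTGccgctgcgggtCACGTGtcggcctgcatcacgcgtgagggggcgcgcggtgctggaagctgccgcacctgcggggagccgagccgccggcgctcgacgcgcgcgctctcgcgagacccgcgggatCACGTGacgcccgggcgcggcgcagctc
CD63: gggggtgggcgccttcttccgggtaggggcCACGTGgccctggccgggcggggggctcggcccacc
IGF2R: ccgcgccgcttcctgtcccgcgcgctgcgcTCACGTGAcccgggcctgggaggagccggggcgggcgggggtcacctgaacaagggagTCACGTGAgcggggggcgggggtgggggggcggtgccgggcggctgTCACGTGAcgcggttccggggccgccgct
ATP6V1G1: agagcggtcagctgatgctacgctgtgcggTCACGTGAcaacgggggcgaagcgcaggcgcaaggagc
ATP6V0E2: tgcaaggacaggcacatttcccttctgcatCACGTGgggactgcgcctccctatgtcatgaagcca
ATP6V0A1: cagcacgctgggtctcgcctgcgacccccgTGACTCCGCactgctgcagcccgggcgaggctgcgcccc

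LAMP1 had 6 matches to CACGTG in its window, 5 of them wholly upstream of the start and shown here, and IGF2R had 3 matches to TCACGTGA. The match says only that these letters are present. Among the 28 tested members with a window, the 10 with CACGTG had a median log2 fold change of 0.31 with sgKeap1-1 and 0.28 with sgKeap1-2, and the 18 without it 0.20 and 0.34, so the members with these letters were higher in one comparison and lower in the other. With sgKeap1-2 2 of the 10 (LAMP1 and CD63) and 2 of the 18 (ATP6V1E1 and ATP6V0A1) rose. For TGACNNNGC the 8 members with a match had medians of 0.31 and 0.30 and the 20 without one 0.20 and 0.34.

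In the V1 sector of the V-ATPase ATP6V1E1, a subunit of the peripheral stalks, was the only gene that rose with sgKeap1-2 in the fit of all libraries without the block. It was at 81.1, 93.6 and 83.9 CPM in the sgCtrl libraries 1 to 3, at 113, 116 and 102 CPM with sgKeap1-1 and at 130, 150 and 134 CPM with sgKeap1-2. The 3 groups did not overlap, and each sgKeap1-2 library was above each sgKeap1-1 library. The log2 fold change was 0.68 with sgKeap1-2 (SE 0.13, edgeR adjusted p = 0.0026) and 0.36 with sgKeap1-1 (SE 0.13, adjusted p = 0.152). The difference between the guides, 0.32 (SE 0.12), had an edgeR adjusted p of 0.915. With both guides the adjusted p of 0.0167 became 0.101 without sgCtrl replicate 1 and 0.0861 without sgCtrl replicate 3.

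ATP6V1H, the regulatory H subunit of V1, was at 23.3, 23.8 and 17.6 CPM in sgCtrl, at 33.6, 38.6 and 30.8 CPM with sgKeap1-1 and at 32, 38.3 and 25 CPM with sgKeap1-2. All 6 knockout libraries were above the sgCtrl libraries, with sgKeap1-2 replicate 3 nearest to them. It passed the test with both guides together (0.62, SE 0.18, edgeR adjusted p = 0.0365) and, without the block, not with either alone (adjusted p = 0.0847 and 0.103; with it 0.0135 and 0.0278). The joint call held only without sgKeap1-1 replicate 3 or sgKeap1-2 replicate 3 among the 9 fits that left out 1 library, and without sgCtrl replicate 3 the adjusted p was 0.205.

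ATP6V1D, a subunit of the central shaft, was at 35.5, 21.8 and 35.7 CPM in sgCtrl, at 41.2, 37.3 and 41.8 CPM with sgKeap1-1 and at 46.8, 44.9 and 45.8 CPM with sgKeap1-2. The groups did not overlap, and sgCtrl replicate 2 was the lowest library. The log2 fold change of 0.55 with sgKeap1-2 (SE 0.18) had an edgeR adjusted p of 0.0725 (0.0175 with the block), and without sgCtrl replicate 2 it was 0.36 (adjusted p = 0.23). The remaining V1 genes differed less. ATP6V1A and ATP6V1B2, which form the catalytic ring, had log2 fold changes of -0.06 and -0.13 with sgKeap1-1 and 0.10 and -0.11 with sgKeap1-2. ATP6V1C1 (0.12 and 0.16), ATP6V1G1 (0.03 and 0.09) and ATP6V1F (0.17 and 0.38) did not pass the test either. ATP6V1G1 was the highest of the V1 genes in every library, at 245 to 302 CPM, and ATP6V1C1, ATP6V1D and ATP6V1H were the lowest, at 17.6 to 46.8 CPM.

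In the membrane sector V0, ATP6V0A1 rose with sgKeap1-2. This form of the a subunit, which holds the proton half-channels, was at 27, 21.8 and 29.8 CPM in sgCtrl, at 34.3, 38.3 and 31.3 CPM with sgKeap1-1 and at 36.9, 46.8 and 43.4 CPM with sgKeap1-2. All knockout libraries were above the sgCtrl libraries. The log2 fold change was 0.69 with sgKeap1-2 (SE 0.18, edgeR adjusted p = 0.0203), 0.40 with sgKeap1-1 (SE 0.18, adjusted p = 0.301) and 0.55 with both (adjusted p = 0.0469). The call with sgKeap1-2 was lost without sgCtrl replicate 1 (adjusted p = 0.0638), sgCtrl replicate 2 (0.0835) or sgKeap1-2 replicate 2 (0.0718), and the joint call in 8 of 9 such fits, all but that without sgKeap1-1 replicate 3, where the adjusted p was 0.0294 (highest 0.192 without sgCtrl replicate 2).

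ATP6V0E1, a small subunit of V0, was at 191, 165 and 149 CPM in sgCtrl, at 215, 195 and 192 CPM with sgKeap1-1 and at 255, 242 and 236 CPM with sgKeap1-2. The groups did not overlap, although sgKeap1-1 replicate 3 (192 CPM) was close to sgCtrl replicate 1 (191 CPM). It rose with sgKeap1-2 (0.54, SE 0.12, edgeR adjusted p = 0.0114). Without the block it did not pass the test with sgKeap1-1 (0.25, adjusted p = 0.366) or with both (0.40, adjusted p = 0.053). The joint comparison passed with the block (edgeR adjusted p = 0.0172) and in DESeq2 (adjusted p = 0.0313). Without sgCtrl replicate 3 the adjusted p with sgKeap1-2 was 0.0738.

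ATP6V0E2, the other e subunit, stood on the opposite side. It was at 300, 202 and 252 CPM in sgCtrl, at 177, 135 and 188 CPM with sgKeap1-1 and at 160, 143 and 243 CPM with sgKeap1-2. All sgKeap1-1 libraries were below sgCtrl, while sgKeap1-2 replicate 3 lay between the sgCtrl libraries. The log2 fold changes of -0.59 (SE 0.21) and -0.46 (SE 0.21) had edgeR adjusted p of 0.166 and 0.2, and without sgKeap1-2 replicate 3 they were -0.59 and -0.73 with adjusted p of 0.033 and 0.0129. Without sgCtrl replicate 1 they were -0.44 and -0.32 (adjusted p = 0.498 and 0.49), and without sgKeap1-2 replicate 2 the value with sgKeap1-2 was -0.30 (adjusted p = 0.455).

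Because ATP6V0E1 and ATP6V0E2 encode alternative forms of 1 subunit, the share of ATP6V0E1 in the reads of both was computed in each library, a measure chosen after the values had been seen and given without a test. It was 40.4 ± 4.06% in sgCtrl (SD, n = 3), 54.8 ± 4.25% with sgKeap1-1 and 57.8 ± 7.48% with sgKeap1-2. The highest sgCtrl share was 44.9% and the lowest knockout share 49.2%, in sgKeap1-2 replicate 3. The summed level of both genes was 419 ± 63.5, 368 ± 33.1 and 426 ± 48.0 CPM, so sgCtrl overlapped with both guides in the sum and with neither in the share, while the guides overlapped with each other in the share. For the a subunit, the share of ATP6V0A1 in ATP6V0A1 plus ATP6V0A2 was 62.2 ± 4.66% in sgCtrl, 73.2 ± 1.92% with sgKeap1-1 and 75.7 ± 1.90% with sgKeap1-2, again without overlap between sgCtrl (58.2 to 67.3%) and the knockout libraries (71 to 77.2%). ATP6V0A2 itself, at 14.5 to 17.2 CPM in sgCtrl and 10.8 to 16.8 CPM in the knockout libraries, had log2 fold changes of -0.30 (SE 0.23) and -0.20 (SE 0.23).

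**Figure D2:**
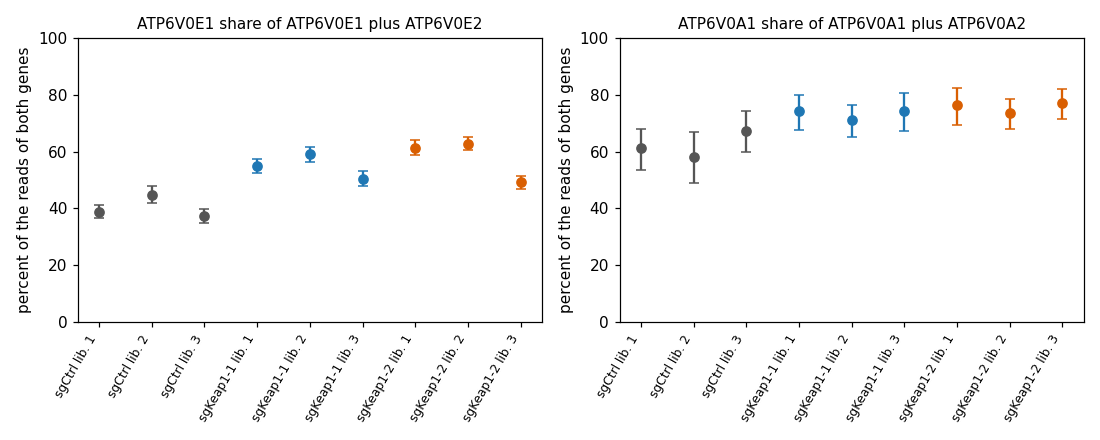
Percent of reads from ATP6V0E1 in ATP6V0E1 plus ATP6V0E2 (left) and from ATP6V0A1 in ATP6V0A1 plus ATP6V0A2 (right) in each library; bars are 95% Wilson intervals, which cover counting error only. The ATP6V0E1 share is 37.2 to 44.9% in sgCtrl and 49.2 to 62.8% in the knockout libraries, and the ATP6V0A1 share is 58.2 to 67.3% and 71 to 77.2%.

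ATP6V0B, a proteolipid of the rotor ring, and ATP6V0D1, which joins V0 to the shaft, did not pass the test. ATP6V0D1 was at 37.9 to 41.9 CPM in sgCtrl, 44.6 to 46.4 CPM with sgKeap1-1 and 49.2 to 57.9 CPM with sgKeap1-2, so that no group overlapped another, with a log2 fold change of 0.39 with sgKeap1-2 (SE 0.14, edgeR adjusted p = 0.0998). ATP6V0B had log2 fold changes of 0.29 and 0.21. The accessory proteins ATP6AP1 (0.17 and 0.26) and ATP6AP2 (0.13 and 0.05), which help the pump to assemble, overlapped with sgCtrl with both guides.

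Among the membrane proteins CD63, a tetraspanin of late endosomes and lysosomes, was the only member besides TMEM92 that rose with each guide in the fit without the block. It was at 671, 598 and 741 CPM in sgCtrl, at 1010, 988 and 826 CPM with sgKeap1-1 and at 1080, 1020 and 1030 CPM with sgKeap1-2. Every knockout library was above every sgCtrl library, and sgKeap1-1 replicate 3 was the lowest of the 6. The log2 fold change was 0.64 with sgKeap1-2 (SE 0.12, edgeR adjusted p = 0.0036), 0.49 with sgKeap1-1 (SE 0.12, adjusted p = 0.035) and 0.57 with both (SE 0.11, adjusted p = 0.00361). The calls with sgKeap1-2 and with both held in all 9 fits that left out 1 library (highest adjusted p 0.023 and 0.0282), whereas that with sgKeap1-1 was lost without any 1 of the sgCtrl libraries (0.14, 0.131 and 0.0546), sgKeap1-1 replicate 1 (0.173) or 2 (0.103), or sgKeap1-2 replicate 1 (0.0539).

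LAMP1, a major glycoprotein of the lysosomal membrane, was at 350, 322 and 391 CPM in sgCtrl, at 483, 412 and 449 CPM with sgKeap1-1 and at 474, 430 and 511 CPM with sgKeap1-2. The knockout libraries were all above sgCtrl; the highest sgCtrl library had 391 CPM and the lowest knockout library 412 CPM. It passed the test with sgKeap1-2 (0.42, SE 0.12, edgeR adjusted p = 0.0421) and with both (0.38, SE 0.11, adjusted p = 0.0342), and, without the block, not with sgKeap1-1 (0.34, SE 0.12, adjusted p = 0.166; with it 0.0348). The call with sgKeap1-2 held in 2 of 9 fits that left out 1 library, those without sgKeap1-1 replicate 2 or sgKeap1-2 replicate 2, with adjusted p from 0.0357 to 0.15. The joint call was lost without sgCtrl replicate 1 (0.143) or 2 (0.155), sgKeap1-1 replicate 1 (0.0725) or sgKeap1-2 replicate 1 (0.0722). Its paralogue LAMP2 was at 157, 143 and 139 CPM in sgCtrl, at 145, 144 and 131 CPM with sgKeap1-1 and at 139, 150 and 88.4 CPM with sgKeap1-2. The sgKeap1-1 and sgKeap1-2 libraries overlapped with sgCtrl, replicate 3 of each guide lay below it, and the log2 fold changes were -0.06 (SE 0.17) and -0.22 (SE 0.17).

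TMEM92, a membrane protein little characterised in lysosomes, went from almost no reads to a low level. It had 2 reads in the 3 sgCtrl libraries together (0, 0.681 and 0 CPM), 125 reads with sgKeap1-1 (9.01, 13.5 and 6.84 CPM) and 135 reads with sgKeap1-2 (10.5, 16.3 and 8.24 CPM). Relative to depth this was 51.5 times the sgCtrl level with sgKeap1-1 (95% interval of the counts 13.96 to 430) and 60.6 times with sgKeap1-2 (16.4 to 505), intervals that cover counting error only. Both sgCtrl reads were in replicate 2. Over the fits that left out 1 library the log2 fold change ran from 4.86 to 8.28 with sgKeap1-1 and from 5.10 to 8.52 with sgKeap1-2. Because TMEM92 could be tested only through the groups in which it was high, no p is given for it. TMEM192, a lysosomal membrane protein with a like name, was at 36.6 to 41.2 CPM in sgCtrl, 39.9 to 52.3 CPM with sgKeap1-1 and 53.3 to 54.8 CPM with sgKeap1-2. Its log2 fold change of 0.47 with sgKeap1-2 (SE 0.15) had an edgeR adjusted p of 0.0557. The adjusted p was 0.0241 with the block, 0.0454 without sgKeap1-1 replicate 2 and 0.0499 with scaling by library size only.

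**Figure D3:**
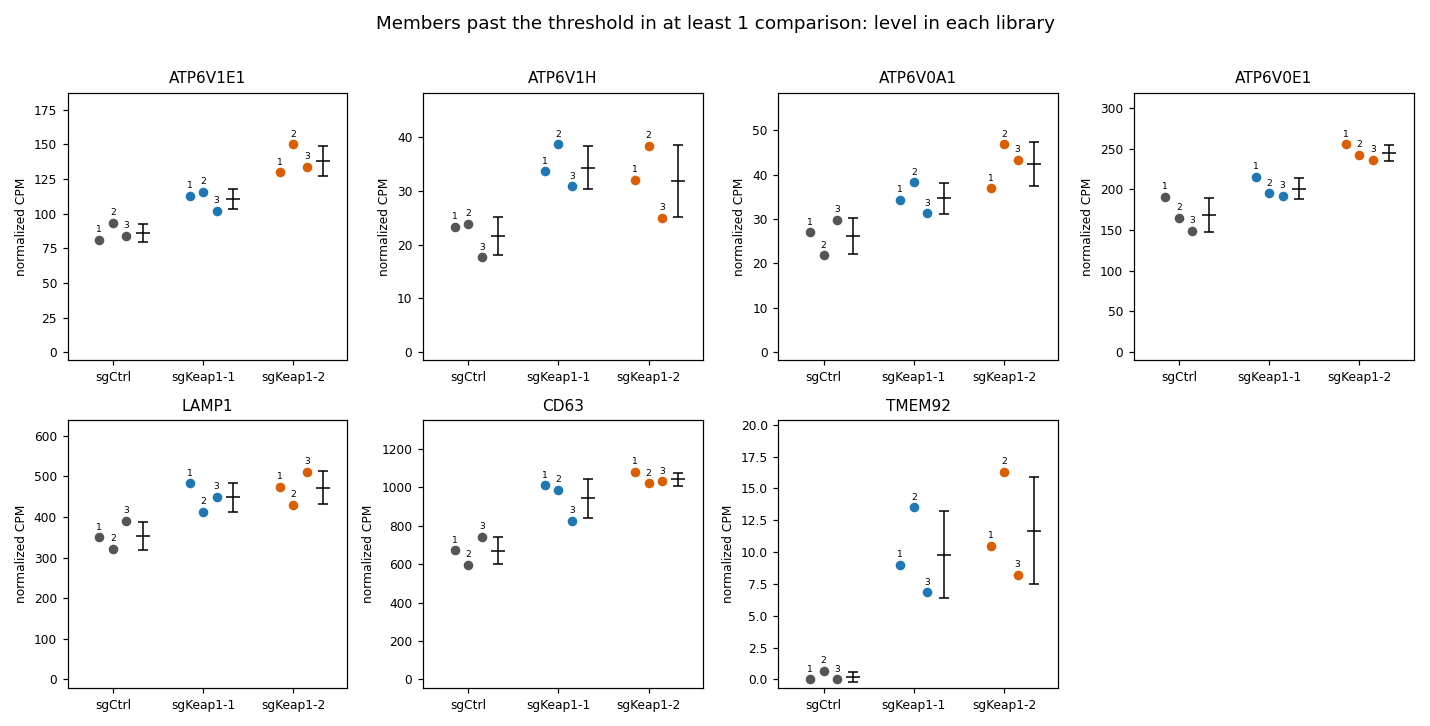
Normalized CPM (vertical axis, from 0) of the 7 members that passed the test in at least 1 comparison, in each library (points, numbered by replicate), with the mean and SD of the 3 libraries (black). In each of the 7 genes all 6 knockout libraries are above the 3 sgCtrl libraries, by the widest margin relative to sgCtrl in TMEM92.

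The other membrane proteins did not pass the test without the block. LAPTM4A was the most abundant member in sgCtrl and with sgKeap1-1, while CD63 was above it in each sgKeap1-2 library; LAPTM4A was at 1140 to 1240 CPM in sgCtrl, 1100 to 1150 CPM with sgKeap1-1 and 1000 to 1010 CPM with sgKeap1-2; the sgKeap1-2 libraries lay below sgCtrl without overlap, with a log2 fold change of -0.22 (SE 0.10, edgeR adjusted p = 0.224). Its paralogue LAPTM4B had the opposite sign (0.25 and 0.32, SE 0.13 each, adjusted p = 0.407 and 0.147), at 129 to 131 CPM in sgCtrl and 137 to 174 CPM in the knockout libraries. SCARB2, the receptor that carries glucocerebrosidase to lysosomes, had log2 fold changes of 0.26 and 0.44 (SE 0.21 each; edgeR adjusted p with the block 0.283 and 0.0265), with sgCtrl replicate 3 the lowest library of all at 33.2 CPM. LITAF was at 574, 518 and 537 CPM in sgCtrl, at 509, 449 and 478 CPM with sgKeap1-1 and at 573, 540 and 515 CPM with sgKeap1-2. Its sgKeap1-1 libraries lay below sgCtrl without overlap and its sgKeap1-2 libraries overlapped with it, with log2 fold changes of -0.18 and -0.00 (SE 0.11 each, edgeR adjusted p = 0.492 and 0.996). CD164, a sialomucin, was at 106, 144 and 100 CPM in sgCtrl, at 97.9, 158 and 103 CPM with sgKeap1-1 and at 119, 142 and 55.5 CPM with sgKeap1-2, so replicate 2 was the highest of its group in all 3 groups.

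Of the members that are transporters or channels of the lysosomal membrane, 5 were tested. With all libraries none of these members passed in edgeR, limma-voom or DESeq2, and 1, OSTM1, had an unadjusted p under 0.05 in edgeR. OSTM1, the beta subunit of the chloride-proton exchanger CLCN7, was at 12.2, 11.6 and 12.3 CPM in sgCtrl, at 15.8, 24.6 and 15.3 CPM with sgKeap1-1 and at 19.1, 24.4 and 13.3 CPM with sgKeap1-2. All knockout libraries were above sgCtrl, and replicate 2 was the highest with each guide. The joint log2 fold change of 0.64 (SE 0.23) had an edgeR adjusted p of 0.0964. Without sgKeap1-2 replicate 3 OSTM1 passed with sgKeap1-2 (0.86, adjusted p = 0.0422) and with both (0.73, adjusted p = 0.0363). CLCN7 had log2 fold changes of 0.35 and 0.34 (SE 0.21 each) and overlapped with sgCtrl. The calcium and sodium channel TPCN1 (0.29 and 0.44), the cystine exporter CTNS (0.36 and 0.07) and the cholesterol transporter NPC1 (-0.03 and -0.32) overlapped with sgCtrl too.

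The sorting genes gave 1 member whose result turned on a single library. IGF2R, the large mannose 6-phosphate receptor, was at 158, 192 and 191 CPM in sgCtrl, at 276, 301 and 270 CPM with sgKeap1-1 and at 320, 319 and 145 CPM with sgKeap1-2. All knockout libraries but 1 lay above the sgCtrl libraries, and sgKeap1-2 replicate 3 lay below them. With all libraries the log2 fold changes of 0.65 (SE 0.24) and 0.54 (SE 0.24) did not pass (edgeR adjusted p = 0.22 and 0.216); in the joint comparison the adjusted p was 0.1 in edgeR and 0.0432 in DESeq2. Without sgKeap1-2 replicate 3 they were 0.65 (SE 0.11, adjusted p = 0.00147) and 0.83 (SE 0.12, adjusted p = 0.000259). IGF2R also passed with sgKeap1-1 when only the sgKeap1-1 and sgCtrl libraries were fitted (0.65, edgeR adjusted p = 0.00466).

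GNPTAB and GNPTG encode the enzyme that begins the mannose 6-phosphate tag. GNPTAB was at 25.9 to 29.3 CPM in sgCtrl and 31.4 to 35.2 CPM in the 6 knockout libraries, without overlap, with log2 fold changes of 0.26 and 0.34 (SE 0.15 each, edgeR adjusted p = 0.479 and 0.197). GNPTG was at 37.1 to 43.2 CPM in sgCtrl, 46.3 to 60.8 CPM with sgKeap1-1 and 56.3, 51.2 and 26.9 CPM with sgKeap1-2, where again replicate 3 alone lay below sgCtrl. The small mannose 6-phosphate receptor M6PR was at 16 to 21.5 CPM in sgCtrl and 18.8 to 28.6 CPM in the knockout libraries (0.15 and 0.34, SE 0.21 each). Sortilin, encoded by SORT1, was at 60 to 70.5 CPM in sgCtrl, 59.2 to 74.9 CPM with sgKeap1-1 and 59.1, 57.8 and 42.4 CPM with sgKeap1-2 (0.01 and -0.29, SE 0.16 each).

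**Figure D4:**
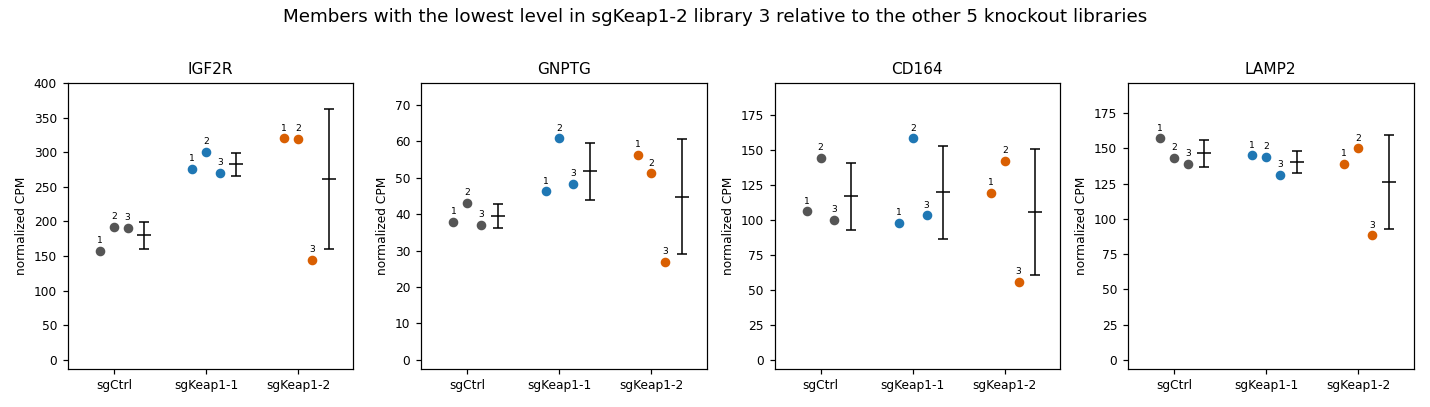
Normalized CPM (vertical axis, from 0) of IGF2R, GNPTG, CD164 and LAMP2 in each library (points, numbered by replicate), with the mean and SD of the 3 libraries (black). In all 4 genes sgKeap1-2 library 3 is the lowest of the 9 libraries; in IGF2R it is at 145 CPM beside 320 and 319 CPM.

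No member passed the test between the guides. In the comparison of sgKeap1-2 with sgKeap1-1, 0 of 36 members passed, and 0.0181% of all tested genes did. An unadjusted p under 0.05 was reached by 2 members, ATP6V1E1 and ATP6V0E1 (a difference of 0.28, SE 0.12), and by 5.08% of all tested genes. DESeq2 and limma-voom also called 0 members. The log2 fold change was larger with sgKeap1-2 in 24 of 36 members (49.4% of all tested genes), with a median difference of 0.08.

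**Figure D5:**
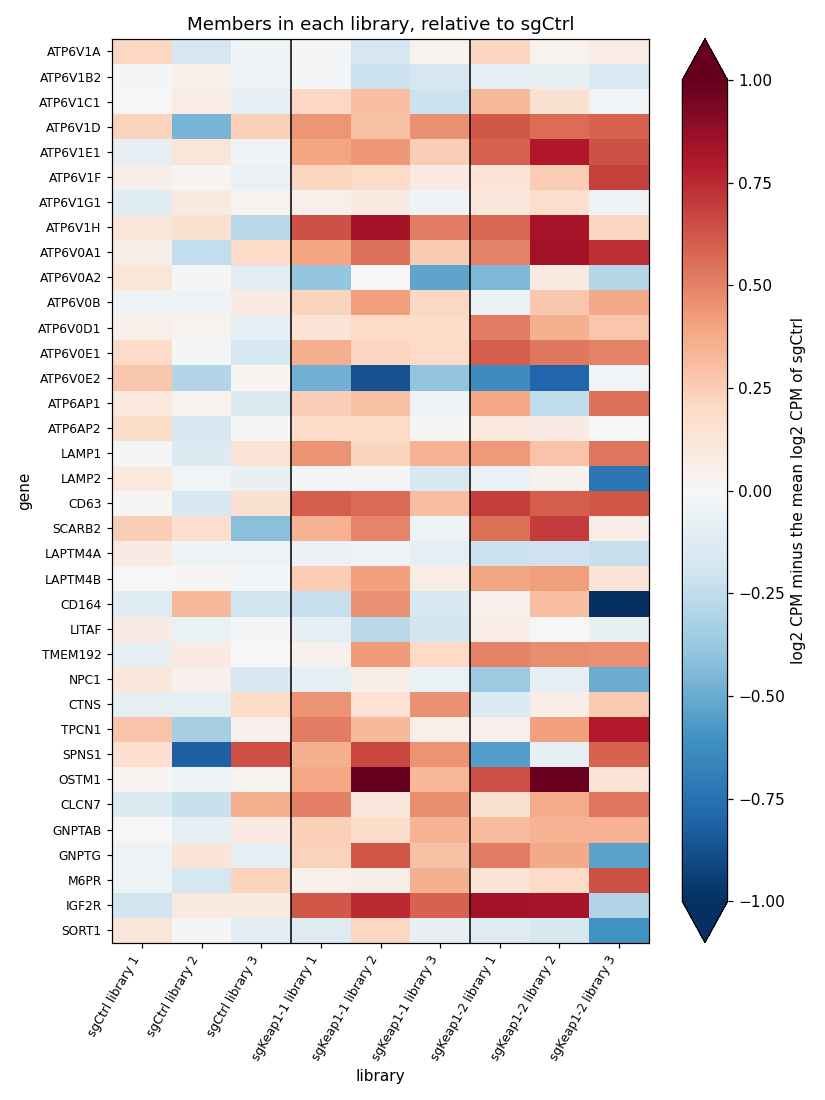
Log2 CPM minus the mean log2 CPM of sgCtrl (colour, red above and blue below) for 36 measured members other than TMEM92 (vertical axis) in each of the 9 libraries (horizontal axis). Red is more frequent in the 6 knockout libraries than in sgCtrl, and sgKeap1-2 library 3 holds blue cells for CD164, LAMP2, GNPTG, IGF2R, SORT1 and NPC1.

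A further 97 genes of the same functions were listed (other V-ATPase forms and assembly factors, other membrane proteins and transporters, and other sorting, adaptor and tethering proteins), of which 83 were measured and 82 tested. The sgKeap1-1 libraries gave these genes a median log2 fold change of 0.05 and the sgKeap1-2 libraries one of 0.08, and without the block none of them fell with either guide in edgeR. The share that rose was 1.22% with sgKeap1-1 and 3.66% with sgKeap1-2, where 2.8% and 5.96% of all tested genes rose. With the block 9 of the 82 rose and 1 fell with sgKeap1-2. Of all 11064 tested genes 1956 passed there in either direction, which is a larger share, against 1196 without the block. The gene that fell was ABCB9, a peptide transporter of the lysosomal membrane (-0.98, edgeR adjusted p = 0.0304), named after its values were seen. Of the 36 sorting genes tested, 1 (2.78%) rose with sgKeap1-2 without the block, and 5 with it. Of all 11064 tested genes 1196 and 1956 passed in either direction, a larger share each time. The 1 was CLTB, a clathrin light chain, which was at 49 to 54.9 CPM in sgCtrl, 61.4 to 71.3 CPM with sgKeap1-1 and 64.2 to 92.9 CPM with sgKeap1-2 (log2 fold changes of 0.36, edgeR adjusted p = 0.279, and 0.63, adjusted p = 0.0166). Among the membrane proteins and transporters SLC48A1, a haem transporter of the lysosomal membrane, rose with sgKeap1-2 (0.85, adjusted p = 0.0308) and is named here after its values were seen. Of the 11 other V-ATPase and assembly genes tested, 0 passed in edgeR without the block (1 and 3 had an unadjusted p under 0.05), and their median was -0.08 and -0.03. With the block ATP6AP1L, named after its values were seen, rose with sgKeap1-2 (0.84, adjusted p = 0.0133).

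The 3' ends of ATP6V1D, NPC1, CTNS, GNPTG and M6PR are overlapped by another tested gene in the GENCODE annotation of GRCh37 (PALS1, RMC1, TAX1BP3, UNKL and PHC1), and the strand setting of the counting is not given in the sources used here, so reads of these pairs could have been assigned to either gene.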

How the data were processed

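RNA from 9 HepG2 libraries (3 groups of 3, groups and replicate numbers from the sample titles) was prepared with a 3' mRNA kit. The authors trimmed, aligned and counted the reads and deposited the result as raw counts, in whole numbers, of reads per gene. The submitters' processing notes name cutadapt 1.16, STAR 2.7.5b, featureCounts 1.6.3, limma 3.40.6 and hg38, whereas the study's methods name GRCh37, so no coordinate of the counts is given here. The annotation and strand setting are not given in the sources used here. Every row reached 0.531 CPM in at least 3 libraries, so low genes had been removed before deposit. Rows without an Entrez number (1052 of 12798, 1.34% of reads) were kept out of library sizes and tests. The table had 0 columns of other samples.

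edgeR 4.0.16 (R 4.3.3) was used with filterByExpr, TMM scaling and the robust quasi-likelihood fit, with the group as the only factor, in 1 fit of 3 groups and 1 fit of both guides against sgCtrl. p-values were adjusted by Benjamini-Hochberg over the 11064 genes tested, and 0.05 was the threshold. The SE was obtained as log2 fold change over the root of F. The fit was tested on simulated data. Alternatives were limma-voom (limma 3.58.1), DESeq2 1.42.0, other scalings and filters, the replicate number as a block, only the groups compared, leaving out each library and, added after seeing the data, keeping the rows without a number.

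All members were named; of other genes of the same functions, up to 5 increases and 5 decreases past the threshold with both guides that had 1 sign in each of the 6 same-numbered differences, of which CLTB is given and another gene is not reported here. The members and lists were chosen with earlier results of these data known. Figures were drawn with matplotlib.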

Additional observations from a re-analysis of the deposited data

How the results depend on the processing

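No value of a member reversed a call under any alternative run, and no scaling moved the median of all genes by over 0.1 (log2). The cause of the differences below was not tested. Among all genes, 465, 1196, 1067 and 2 passed with sgKeap1-1, with sgKeap1-2, with both guides and between the guides. Leaving out each library in turn gave 278 to 688, 764 to 1291, 607 to 1259 and 0 to 2 of all genes, and 1 to 5, 4 to 9, 2 to 9 and 0 members. The lowest counts came without sgCtrl replicate 1 and the highest member counts without sgKeap1-2 replicate 3. Between the guides, limma-voom, at least 10 counts in every library and only the groups compared each gave 0 genes, and DESeq2 gave 19; at an unadjusted p, 562 of all genes and 2 members were under 0.05 in edgeR. With sgKeap1-1, at least 10 counts in every library left 1 member called (TMEM92 could not be tested there) and only the groups compared gave 4 (IGF2R rose and ATP6V0E2 fell in addition). LAMP1 with sgKeap1-2 had an adjusted p of 0.0642 with only the groups compared, and with both guides ATP6V1H and ATP6V0A1 had adjusted p of 0.0515 and 0.0639 in limma-voom and ATP6V0A1 0.0514 with at least 10 counts in every library. In DESeq2 ATP6V0E1 (0.0313), ATP6V0E2 (0.0484) and IGF2R (0.0432) passed with both guides. Whether depth limited the low members was not tested.

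Libraries with the same replicate number deviated from their group means with a correlation of -0.01 to 0.52, mean 0.23 and over 0.1 in 7 of 9 pairs, and libraries of different numbers with a mean of -0.12 (over 0.1 in 3 of 18). Same-numbered libraries thus shared deviations on average. Since 2 same-numbered pairs were not over 0.1 and no label says what the number marks, the main fit has no block. The results with the block are given beside it. The sample descriptions give libraries of the same number a shared prefix in all 3 groups, whose meaning is not stated. Whether the shared deviations came from a common preparation was not tested. With the replicate number as a block, 977 of the 11064 tested genes passed with sgKeap1-1, 1956 with sgKeap1-2, 1609 with both guides and 26 between the guides. Of the 36 tested members, TMEM92 included, 5 passed with sgKeap1-1, 11 with sgKeap1-2 and 9 with both. ATP6V0E2 was the 1 that fell in each. The block added ATP6V1H (0.0135) and LAMP1 (0.0348) with sgKeap1-1, ATP6V1D (0.0175), ATP6V1H (0.0278), SCARB2 (0.0265) and TMEM192 (0.0241) with sgKeap1-2, and ATP6V1D (0.0379) and ATP6V0E1 (0.0172) with both, as edgeR adjusted p.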
